A study of Mus musculus with 9 samples.

Results

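TEC genes, short for loci that GENCODE holds back until experimental evidence is found for them, were described in brain RNA of mice from the deposited gene counts. The members were the TEC genes of the GENCODE M21 mouse annotation (build GRCm38) that reached 90 or more sense-strand counts summed over the 9 libraries. The files held 54446 gene identifiers, of which 54409 were in that annotation and 3161 were TEC genes. Of these, 429 reached 90 counts and 2732 did not, 845 of them with no count in any library. The members were thus chosen by their summed count, so the levels below are a description.

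The libraries came from brain tissue, with the region not given, of adult male mice 3 to 4 months old. There were 3 libraries from B6N wild-type mice, 3 labelled Tfap2a+/- and 3 labelled Tfap2b+/-, each a heterozygous knockout of a gene for an AP-2 transcription factor. The sources used here do not give how the alleles were made. They also do not say that replicates were separate animals, in which case a p-value reflects library spread that may be technical. RNA was enriched for poly(A) tails with oligo-dT beads and made into libraries that keep the strand. Gene counts per library were between 21946800 and 29214975. Levels are in CPM, a gene's share of the library's gene counts, scaled by TMM factors, which allow for differences in RNA composition. Markers of neurons summed to between 4297 and 7954 CPM over the 9 libraries, and the 3 libraries labelled Tfap2b+/- (4297 to 6518 CPM) were below wild type (6555 to 7628 CPM). Taken alone, each of the 5 neuronal markers overlapped between these 2 groups. The mean of Gad1 was higher under that label (468 against 401 CPM). Markers of the choroid plexus, which makes cerebrospinal fluid, ranged from 17.3 to 3072 CPM, with the highest sums in wild type 2 and in library 1 labelled Tfap2a+/- (852 CPM). Markers of the hindbrain and raphe summed to 68.1 CPM in library 1 labelled Tfap2b+/- and to 2.30 CPM or less elsewhere. In that library Tph2 was at 41.0 and Slc6a4 at 25.6 CPM, while Hoxb3 and Hoxb5 were at 0. The set is called raphe markers below. Olfactory bulb markers summed to 1.54 to 2.02 CPM in wild type, while libraries labelled Tfap2b+/- had 13.3, 2.12 and 48.8 CPM, with library 3 the highest. In library 1 of these, Th alone was at 11.6 CPM. Library 1 labelled Tfap2a+/- had a sum of 8.77 CPM. The wild-type libraries had 2.25, 0.715 and 14.8 CPM of Tfap2b itself, and those labelled Tfap2b+/- had 33.0, 8.89 and 5.81 CPM. Its mean was therefore not lower in the libraries labelled heterozygous for it, and these are named by their label throughout.

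Most protein-coding genes are transcribed as long precursors whose introns are removed in the nucleus, and the mature RNA is cut and given a poly(A) tail shortly after a signal that most often reads AATAAA. TEC models rest on clusters of single cDNA reads with poly(A) features, and they lie in introns, beyond the last exon of a gene, on the other strand of a gene or between genes. A count over such a model can therefore come from a transcript of its own or from a longer transcript that crosses it, and gene counts do not tell these apart.

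Among the members, 427 of 429 had only models with 1 exon and 2 (Gm37711 and Gm9870) had a model with 2 exons. Their lengths ran from 335 to 30942 bp with a median of 2472 bp, and 420 carried a provisional Gm or Rik name. A gene on the same strand overlapped 265 members (61.8%), called sense hosts here. Of these members 245 lay wholly inside an intron and 20 overlapped an exon or an end of the host. A further 75 members overlapped a gene on the other strand only, 53 began within 10 kb after the 3' end of a gene on the same strand, 13 began within 2 kb of the start of a gene running the other way, and 23 had none of these neighbours. Among the TEC genes under 90 counts, 52.2% had a sense host and 22.3% had no such neighbour, against 61.8% and 5.36% of the members.

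The 3' ends differed between positions, and a few are shown to make that visible. The last 100 bases of 4 members that lie downstream of a gene follow, from the GENCODE M21 transcripts, 5' to 3', with AATAAA in capitals.
Gm47155 (chr13:93412858-93412957, plus strand, after Homer1): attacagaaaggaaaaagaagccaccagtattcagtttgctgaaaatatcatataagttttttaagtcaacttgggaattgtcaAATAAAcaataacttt
Gm49593 (chr15:79480227-79480326, minus strand, after Kcnj4): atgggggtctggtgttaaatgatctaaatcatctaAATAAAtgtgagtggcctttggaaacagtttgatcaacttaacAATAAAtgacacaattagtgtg
Gm43682 (chr5:93178960-93179059, plus strand, after Sept11): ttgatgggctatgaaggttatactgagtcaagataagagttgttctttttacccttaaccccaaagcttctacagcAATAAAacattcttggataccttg
Gm37711 (chr4:132104830-132104929, minus strand, after Oprd1): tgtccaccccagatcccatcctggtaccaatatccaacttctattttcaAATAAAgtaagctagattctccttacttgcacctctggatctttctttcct
The last AATAAA ended 10 bases before the end of Gm47155, 16 before that of Gm49593, 18 before that of Gm43682 and 45 before that of Gm37711.

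The same 100 bases are shown for 3 members inside introns, none of which holds AATAAA. Capitals mark a run of 10 or more A.
A230103L15Rik (chr7:59327318-59327417, minus strand, in Snhg14): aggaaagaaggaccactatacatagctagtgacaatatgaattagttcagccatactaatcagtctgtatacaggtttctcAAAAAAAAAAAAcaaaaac
Gm43300 (chr3:119727748-119727847, minus strand, in Ptbp2): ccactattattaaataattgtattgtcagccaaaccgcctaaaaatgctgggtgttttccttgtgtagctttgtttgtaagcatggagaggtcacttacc
Gm42433 (chr9:110006814-110006913, plus strand, in Map4): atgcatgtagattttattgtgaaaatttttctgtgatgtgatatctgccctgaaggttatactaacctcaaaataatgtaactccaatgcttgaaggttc
Over all members, AATAAA was in the last 100 bases of 137 (31.9%), against 24.4% of the TEC genes under 90 counts and 62.2% of protein-coding genes with 90 or more counts. The share was 54.7% for downstream members, 52.2% for those with no neighbour, 46.7% for those antisense only and 21.5% for those with a sense host. The same letters on the other strand, TTTATT, were in 10.3% of members and 13.4% of protein-coding genes. A match is a description of the letters and no proof of use.

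A run of 10 or more A lay somewhere in 107 members (24.9%) and a run of 10 or more T in 128 (29.8%). In the TEC genes under 90 counts, which had shorter transcripts (median 1855.5 against 2472 bases), these shares were 17.1% and 22.7%. The windows of 70 bases around the longest A run of 2 intronic members described below read as follows, with the run in capitals.
Gm20371 (chr6:80303166-80303235, plus strand, in Lrrtm4): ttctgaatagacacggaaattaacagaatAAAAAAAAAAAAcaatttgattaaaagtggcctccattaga
D230049E03Rik (chr12:98770199-98770268, plus strand, in Zc3h14): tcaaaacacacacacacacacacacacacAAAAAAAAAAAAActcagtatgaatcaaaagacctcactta

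Most members were present at low levels. The mean over the 9 libraries had a median of 0.924 CPM and ran from 0.371 CPM for Gm43317 to 66.4 CPM for 9330162G02Rik. Median levels were 2.09 CPM for downstream members, 1.42 CPM for members with no neighbour, 1.13 CPM for antisense-only members, 0.827 CPM for divergent members and 0.696 CPM for members with a sense host. Only 54 members reached 900 counts over the 9 libraries. Per kilobase of exon model the order changed, with Gm44509 highest (26.7 CPM per kb), followed by Gm42732 (23.3), Gm47155 (13.1) and 9330121K16Rik (11.7), while the 30942 bp model of 9330162G02Rik held 2.14 CPM per kb. At the threshold, Gm10676, Gm37268 and Gm43317 were just inside with 90 counts each, and Gm43318, Gm43852 and Gm49449 just outside with 89 each. There were 45 members with 90 to 99 counts and 34 TEC genes with 80 to 89.

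As a class, the members had their highest summed level in the libraries labelled Tfap2b+/-. The sum was 960, 735 and 844 CPM in wild type, 899, 880 and 1015 CPM in the libraries labelled Tfap2a+/- and 1120, 1071 and 1079 CPM in those labelled Tfap2b+/-. The 3 libraries labelled Tfap2b+/- were above the other 6, and wild type overlapped with Tfap2a+/-. The means were 846 ± 112, 931 ± 72.9 and 1090 ± 26.0 CPM (SD, n = 3 each). Members with a sense host accounted for most of the difference: they summed to 285 ± 52.5, 332 ± 20.7 and 455 ± 16.2 CPM, a ratio of 1.59 between Tfap2b+/- and wild type, against a ratio of 1.13 for members with no sense host (561 ± 60.2, 599 ± 52.9 and 635 ± 14.4 CPM). A gene that is high in 1 group passes a count threshold more easily, so the TEC genes left out were summed too. These 2732 genes together held 122 ± 6.95, 149 ± 26.0 and 227 ± 24.9 CPM, a ratio of 1.85.

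The share of all fragments that fell on no annotated exon of the right strand, recorded in the count files in a row of its own, moved with these sums. It was 8.86, 7.30 and 7.88% in wild type, 8.94, 8.07 and 8.96% in the libraries labelled Tfap2a+/- and 11.8, 11.1 and 11.1% in those labelled Tfap2b+/-. The 3 libraries labelled Tfap2b+/- were again above all others. The difference of 3.33 percentage points from wild type had p = 0.1 in a two-sided exact permutation test, the smallest p that 3 libraries against 3 allow. For Tfap2a+/- against wild type the difference was 0.643 points (exact permutation p = 0.2), and for Tfap2b+/- against Tfap2a+/- 2.69 points (exact permutation p = 0.1).

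Across the 9 libraries the summed CPM and this share had Pearson's r = 0.937 and Spearman's rho = 0.983. Without the 2 libraries farthest from the median share, r was 0.900. Over the 6 libraries of wild type and Tfap2a+/- r was 0.912, and for deviations from the genotype means r was 0.869 (n = 9). Both measures come from the same libraries, so these values are a description without a test. The CPM is scaled to the gene counts, and the share on no exon is of all fragments. Counted per 1000 of the fragments on no exon, the members held 8.65 ± 0.285 counts in wild type, 8.80 ± 0.277 in Tfap2a+/- and 7.98 ± 0.201 in Tfap2b+/- (SD, n = 3). Members with a sense host held 2.90 ± 0.234, 3.14 ± 0.0297 and 3.33 ± 0.0979 of these, and members with no sense host 5.74 ± 0.133, 5.66 ± 0.247 and 4.65 ± 0.141.

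**Figure D1:**
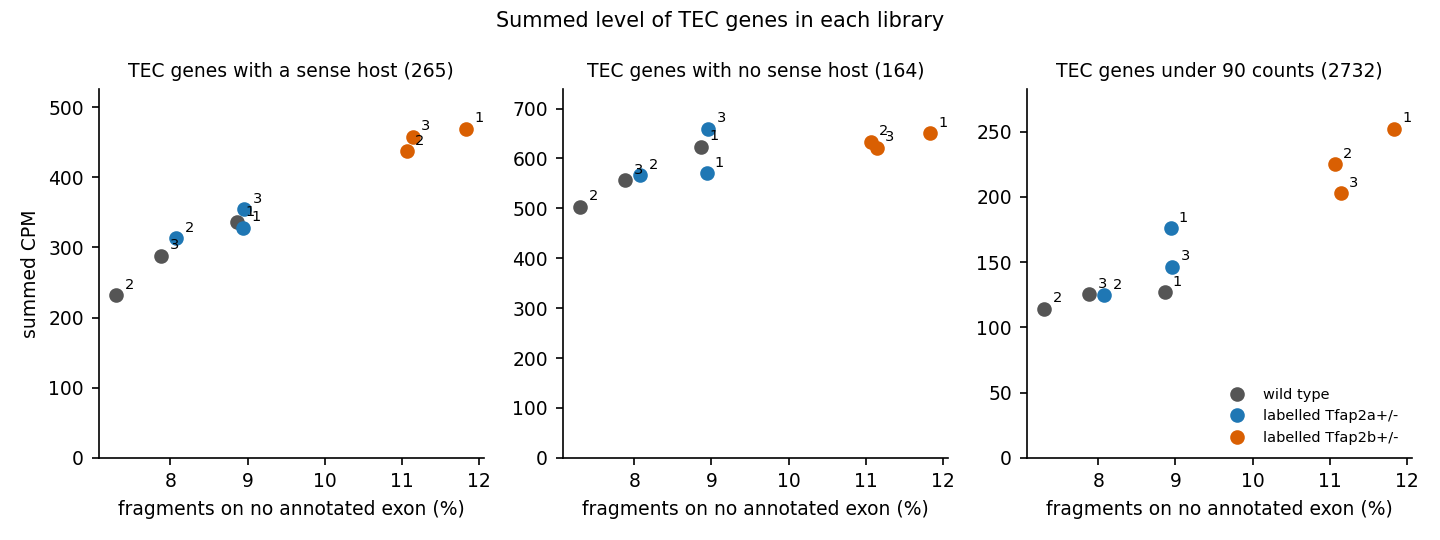
Summed CPM of TEC genes (vertical axis, from 0) against the percentage of fragments on no annotated exon (horizontal axis) in each of the 9 libraries, numbered by replicate. The 3 libraries labelled Tfap2b+/- lie to the right in each panel; they stand above the others for genes with a sense host and for genes under 90 counts, and overlap with the others for genes with no sense host.

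The relation was spread over many members. The median over members of r between a member's log2 CPM (0.05 added) and that share was 0.563, against 0.011 over all 16825 genes tested. It was 0.665 for members with a sense host and 0.072 for the 209 tested sense hosts themselves, whose libraries are the same. For deviations from the genotype means the median r was lower, 0.264 for members and -0.007 for all genes tested. Of the members 312 (72.7%) had a positive r for these deviations, as did 49.4% of all genes tested. The 52 genes that GENCODE classes as sense intronic, a noncoding class within introns, had a median r of 0.588.

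For single members, no adjusted p from edgeR's quasi-likelihood test was below 0.05 in any of the 3 comparisons, nor was that of any of the 16825 genes tested (0.0% called in each direction). The smallest adjusted p of a member was 0.194 for Tfap2b+/- against wild type and 0.949 for Tfap2a+/- against wild type. Against wild type, 356 of 429 members had a higher mean in the libraries labelled Tfap2b+/- (83.0%, against 49.8% of all genes tested), and their median log2 fold was 0.60, against 0.00 over all genes. In 160 members all 3 Tfap2b+/- libraries lay above all 3 of wild type (37.3%, against 8.73% of all genes), and in 3 they lay below (Gm45640, Gm43034 and Gm49300; 7.6% of all genes lay below). At an unadjusted p under 0.05 there were 137 members with a higher and 2 with a lower mean, where 6.49% and 4.15% of all genes passed. A log2 fold over 1 was fitted for 109 members (25.4%, against 3.01% of all genes). DESeq2, run on the same counts, called 24 members higher and 1 lower at an adjusted p under 0.05, where it called 0.79% and 0.315% of all genes. With at least 300 counts the median was 0.32. It was 0.46 without the 3 libraries named above for markers of the choroid plexus or raphe, and 0.57 without library 3 labelled Tfap2b+/-, the highest in olfactory bulb markers. The part of the lower neuronal marker sum under that label, and of the olfactory bulb markers, which differed between its libraries, was not tested. When the share of fragments on no exon was added to the model as a covariate, the median turned to -0.09. All 3 libraries labelled Tfap2b+/- were above all others in that share, and the 2 cannot be told apart here. In whole tissue, fewer cells of a type and less RNA per cell cannot be told apart either.

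The libraries labelled Tfap2a+/- differed less from wild type. The mean was higher in 303 members (70.6%, against 48.5% of all genes), and the median of the log2 folds was 0.17. In 44 members all Tfap2a+/- libraries were above wild type and in 11 below, 10.3% and 2.56% of members against 4.83% and 4.23% of all genes. At an unadjusted p under 0.05 the numbers were 25 and 7, against 2.13% and 1.68% of all genes, and DESeq2 called 1 member higher and 0 lower (0.131% and 0.0535% of all genes). The median was 0.34 without wild type 1, 0.10 without wild type 2 and 0.08 with the share of fragments on no exon as a covariate. It was 0.08 without the 3 libraries high in choroid plexus or raphe markers. Between the heterozygotes, 344 members (80.2%, against 51.6% of all genes) were higher on average in Tfap2b+/-, with 0.38 as the median. Without adjustment, p was under 0.05 for 82 higher and 7 lower members, where 6.63% and 5.06% of all genes passed. DESeq2 called 9 higher and 1 lower (0.82% and 0.582% of all genes), and 45 members had a log2 fold over 1 (2.91% of all genes). The groups did not overlap in 120 members with Tfap2b+/- above and 9 with it below (9.17% and 8.11% of all genes). The 2 comparisons with wild type share the wild-type libraries.

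Folds differed by the position of the members. In Tfap2b+/- against wild type the median log2 fold was 0.81 for the 265 members with a sense host, of which 94.0% had a higher mean (49.8% of all genes) and 128, or 48.3%, lay wholly above wild type (8.73% of all genes). It was 0.82 for the 245 within an intron and 0.68 for the 20 that overlap an exon or end of the host. Antisense-only members had a median of 0.25, downstream members 0.15, members with no neighbour 0.10 and divergent members 0.08. The sense-intronic genes had a median of 0.59, lincRNA genes 0.19 and protein-coding genes -0.02. In Tfap2a+/- against wild type the corresponding medians were 0.25 for members with a sense host and 0.06 for those with none.

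**Figure D2:**
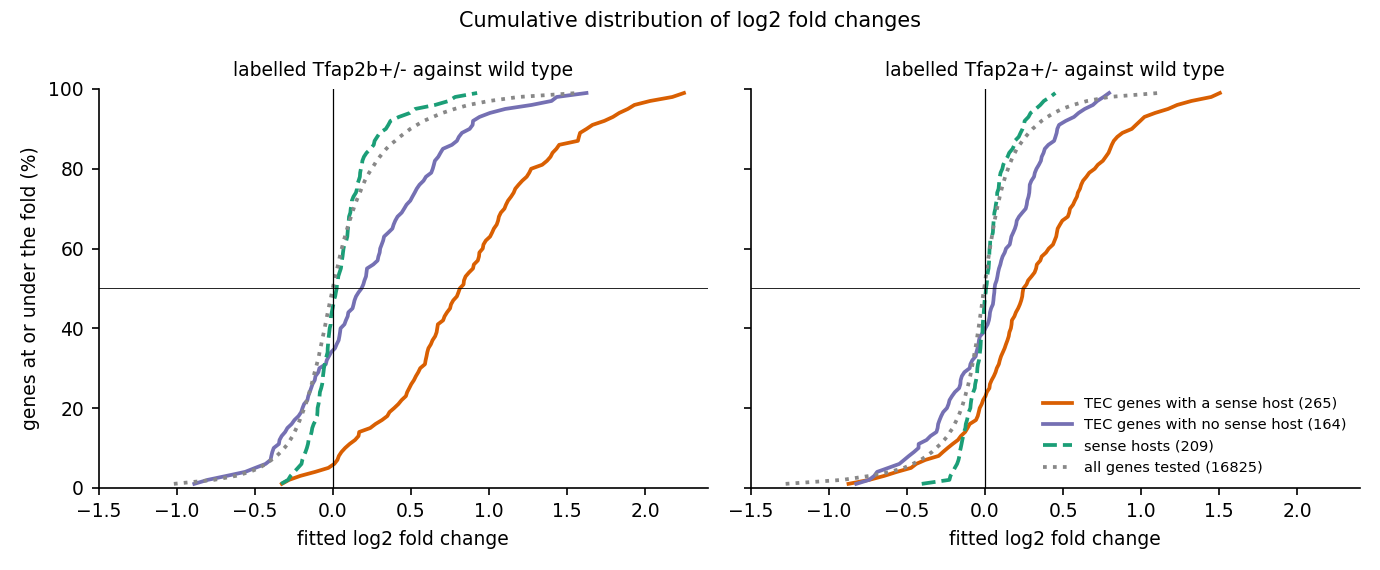
Cumulative percentage of genes (vertical axis) at or under each fitted log2 fold (horizontal axis) for TEC genes with and without a sense host, the sense hosts and all genes tested; left, Tfap2b+/- against wild type, right, Tfap2a+/- against wild type. The curve of TEC genes with a sense host crosses 50% at 0.81 on the left and 0.25 on the right, while the hosts and all genes cross close to 0.

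The folds were also split by sequence features, separately for members with and without a sense host. Among members with a sense host, the 75 with an A run had a median log2 fold of 1.06 in Tfap2b+/- against wild type and the 190 without one 0.72. Without a sense host the values were 0.29 and 0.14. The 80 with a sense host and a T run had 0.77 and the 185 without a T run 0.84, while without a sense host the 48 with a T run had 0.29 and the other 116 had 0.15. Members with a sense host and a GC content at or under the median of all members (41.9%) had a median of 1.01, against 0.67 for those over it. Without a sense host these values were 0.39 and 0.04. AATAAA in the last 100 bases went with a median of 0.80 against 0.81 in members with a sense host and of 0.11 against 0.21 in the others. Members with a sense host at or under the median CPM had a median fold of 0.95 and those over it 0.71. These features are not independent of each other, and their part in the folds was not tested.

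The folds of members with a sense host were mostly higher than those of their hosts. The 209 hosts that could be tested had a median log2 fold of 0.02 in Tfap2b+/- against wild type. Of 256 members with a tested host, 236 had a higher fold than the host (92.2%), and the median difference was 0.78. Across these members r between the fold of the member and that of the host was 0.089, and it was 0.291 for Tfap2a+/- against wild type and 0.286 between the heterozygotes. For the 48 downstream members with a tested neighbour, r was 0.654 and the median difference 0.06. Spearman's rho was 0.534 for these and 0.078 for the members with a sense host. The folds of the sense hosts had a narrow spread, with quartiles of -0.07 and 0.15. The part of this spread and of the lower level of members with a sense host in the difference was not tested. Members that share a host are not independent, and all folds share the wild-type libraries, so these are descriptions across genes. Members with a sense host held a median of 1.27% of the count of the host, and downstream members 17.4% of that of the neighbour.

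**Figure D3:**
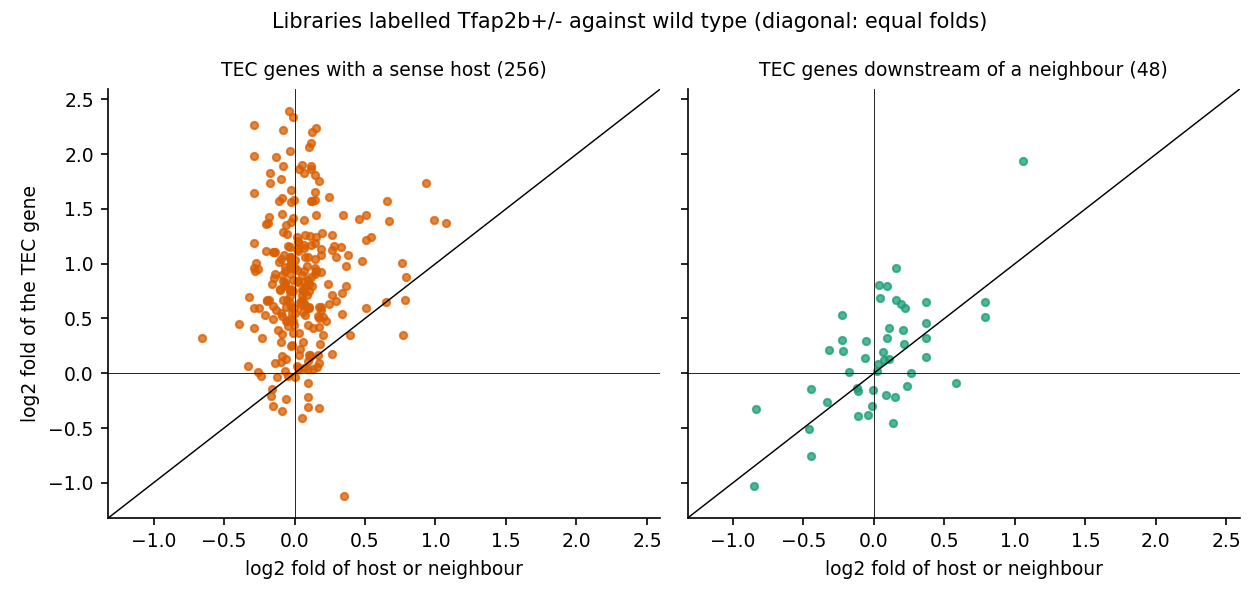
Fitted log2 fold of each TEC gene (vertical axis) against that of its sense host (left, 256 genes) or of the gene it lies downstream of (right, 48 genes), for Tfap2b+/- against wild type, with the diagonal of equal folds. On the left the points form an upright column near 0 on the host axis, mostly above the diagonal; on the right they lie along it.

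One group of members lay on mouse chromosome 7 in and beside Snhg14. Snhg14 is a long noncoding RNA that hosts imprinted small nucleolar RNAs, and in neurons its transcript is known to run on antisense across Ube3a, a ubiquitin ligase gene. Gm44560 (chr7:59286052-59289166, minus strand) lies over Ube3a on the strand of Snhg14. It was at 6.20, 3.61 and 6.32 in wild type, 8.56, 6.19 and 8.30 in Tfap2a+/- and 23.4, 14.7 and 14.1 CPM in Tfap2b+/-. All libraries labelled Tfap2b+/- were above the other 6, while wild type overlapped with Tfap2a+/-. The log2 fold against wild type was 1.70 ± 0.28 (SE), with an adjusted p of 0.194 from edgeR's quasi-likelihood test and of 3.6e-05 from DESeq2.

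Its 3 neighbours over Ube3a had the same order. Gm44562 had a log2 fold of 1.58, Gm44559 of 1.397 and 9330162G02Rik of 0.996, each with all Tfap2b+/- libraries above wild type. Of all antisense-only members 21.3% lay wholly above wild type, and of all genes 8.73%. Gm44562 and Gm44559 were picked after their values were seen. The members over Ube3a lie side by side on 1 strand, so they are not independent. 9330162G02Rik, the member of highest level, was at 56.6, 32.0 and 53.0 in wild type, 57.8, 51.9 and 63.7 in Tfap2a+/- and 138, 78.9 and 65.5 CPM in Tfap2b+/-, with library 1 the highest. Within Snhg14 on the same strand, A230103L15Rik (chr7:59327318-59331189) was at 9.06, 3.65 and 6.63 in wild type, 9.62, 8.95 and 9.54 in Tfap2a+/- and 18.1, 17.01 and 17.5 CPM in Tfap2b+/-. The groups of wild type and Tfap2b+/- did not overlap (log2 fold 1.45 ± 0.26 (SE), adjusted p = 0.242 with edgeR's quasi-likelihood test and 2.0e-04 with DESeq2). Snhg14 itself had a log2 fold of 0.51 and Ube3a of 0.02.

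Several large neuronal genes held a run of members in their introns. These hosts were picked after the values were seen. Over all members with a sense host, 48.3% lay wholly above wild type in Tfap2b+/-, against 8.73% of all genes. Dlg2, a postsynaptic scaffold gene, held 7 members with log2 folds from 0.42 to 2.27 in Tfap2b+/- against wild type, 4 of them wholly above it, while Dlg2 had -0.29. Ank2, which links membrane proteins to the cytoskeleton, held 6 with folds from 0.63 to 1.83, all 6 wholly above wild type, with Ank2 at 0.07. Kcnip4, which encodes a partner of potassium channels, held 6 with folds from 0.96 to 1.81, 5 of them above, with Kcnip4 at 0.15. Fam155a, whose product belongs to a sodium leak channel, held 3 with folds from 1.29 to 2.22 and had -0.08 itself. The pattern was not general, since the 4 members in Tshz3, a zinc-finger factor gene, had folds from -0.22 to 0.11 and none lay above wild type.

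Lrrtm4, a gene for a postsynaptic adhesion protein, held 4 members with folds from 1.58 to 2.10. Gm20371 (chr6:80302613-80304368), whose A run is shown above, was at 0.235, 0.376 and 0.193 in wild type, 0.719, 0.579 and 0.599 in Tfap2a+/- and 1.17, 1.25 and 1.09 CPM in Tfap2b+/-. The 3 groups did not overlap and stood in that order. Its log2 fold was 2.10 ± 0.32 (SE) for Tfap2b+/- and 1.22 ± 0.33 for Tfap2a+/- against wild type (edgeR's quasi-likelihood test, adjusted p = 0.194 and 0.9996), and Lrrtm4 had 0.11 and 0.16. D230049E03Rik (chr12:98766105-98770355), in an intron of Zc3h14, a gene for a zinc-finger protein that binds poly(A), was at 0.141, 0.113 and 0.154 in wild type, 0.343, 0.356 and 0.599 in Tfap2a+/- and 0.778, 0.708 and 0.717 CPM in Tfap2b+/-. It too had 3 groups without overlap. Its wild-type values lie close to 3 counts, however, which are 0.137, 0.111 and 0.115 CPM in those libraries before TMM scaling. The log2 fold for Tfap2b+/- was 2.39 ± 0.37 (SE), with an adjusted p of 0.194 in edgeR's quasi-likelihood test and 0.0178 in DESeq2, while Zc3h14 had -0.04. Gm20371 and D230049E03Rik were named for a small p, and the count threshold was on the sum over all libraries. Their place above wild type is therefore partly built into the choice. How many of all genes had 3 groups without overlap is not given here.

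Gm43300 (chr3:119727748-119729790) lies in an intron of Ptbp2, a splicing regulator of neurons. It was at 1.50, 1.62 and 1.73 in wild type, 1.88, 2.45 and 2.49 in Tfap2a+/- and 4.21, 3.34 and 3.40 CPM in Tfap2b+/-, again with no overlap between the 3 groups. The log2 fold for Tfap2b+/- was 1.17 ± 0.20 (SE; adjusted p = 0.203 with edgeR's quasi-likelihood test, 0.00127 with DESeq2), and that of Ptbp2 was 0.11. Gm43300 was also named for a small p, and how many of all genes had 3 such groups is not given here. Gm38020 (chrX:103576426-103581101), which overlaps an exon or end of the lincRNA gene Ftx on the same strand, was at 12.5, 8.13 and 11.4 in wild type, 10.7, 10.4 and 13.3 in Tfap2a+/- and 21.6, 15.3 and 22.1 CPM in Tfap2b+/-. Only the Tfap2b+/- libraries stood apart, and here the host had a similar fold (0.79 against 0.88 for Gm38020).

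Some intronic members went with both labels. Gm45221 in Picalm, an endocytosis adaptor gene, had a log2 fold of 1.86 for Tfap2b+/- and 1.10 for Tfap2a+/- against wild type, and Gm44891 in Fgfr2, a growth factor receptor gene, had 1.90 and 1.49. Gm42993 in Auts2 had 2.03 and 1.41, and Gm26814 in Ppp1r9a, which encodes an actin-binding protein of synapses, 1.74 and 1.54. Each of these 4 had both heterozygous groups wholly above wild type. Their mean levels in wild type were 0.284 CPM or less, and none had an adjusted p below 0.05 in edgeR's quasi-likelihood test. They were named for a small p, and the count threshold was on the sum over all libraries. Being above wild type is therefore partly built into the choice of these 4. Of all genes, 8.73% lay above wild type for Tfap2b+/- and 4.83% for Tfap2a+/-. The share above it in both comparisons, which use the same wild-type libraries, is not given here. For Tfap2b+/- against wild type, DESeq2 gave an adjusted p of 0.0201 for Gm45221, 0.0476 for Gm44891, 0.0591 for Gm42993 and 0.0740 for Gm26814.

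Gm45640 (chr8:90876581-90878476), in an intron of the chromatin remodeller gene Chd9, went the other way. It was at 10.1, 7.26 and 8.37 in wild type, 9.08, 8.95 and 10.7 in Tfap2a+/- and 3.04, 3.84 and 4.95 CPM in Tfap2b+/-. The libraries labelled Tfap2b+/- were below the other 6. The log2 fold against wild type was -1.12 ± 0.20 (SE; adjusted p = 0.242 with edgeR's quasi-likelihood test, 4.4e-04 with DESeq2), while that of Chd9 was 0.35.

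Gm49702 (chr16:35284754-35286550) was the member that DESeq2 called for Tfap2a+/- against wild type. It lies in an intron of Adcy5, the main adenylyl cyclase gene of the striatum. It was at 0.423, 0.978 and 0.347 in wild type, 2.74, 3.56 and 1.89 in Tfap2a+/- and 0.566, 1.18 and 1.36 CPM in Tfap2b+/-. The Tfap2a+/- libraries were above all others (log2 fold against wild type 2.21 ± 0.48 (SE), adjusted p = 0.949 with edgeR's quasi-likelihood test, 0.0144 with DESeq2). Adcy5 had a log2 fold of 0.95 there. The 5 striatal markers summed to 750, 637 and 211 CPM in the Tfap2a+/- libraries, 48.4, 217 and 84.0 CPM in wild type and 45.3, 119 and 194 CPM in Tfap2b+/-, and the part of these cells in the value of Gm49702 was not tested. Among the other members named for a small p between Tfap2a+/- and wild type, Gm37277, downstream of the G-protein regulator gene Rgs20, had a log2 fold of 0.84 and Gm38228, in Nck2, of 1.46. Gm45838, over the lipid transfer gene Stard5, had -1.61 in that comparison.

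**Figure D4:**
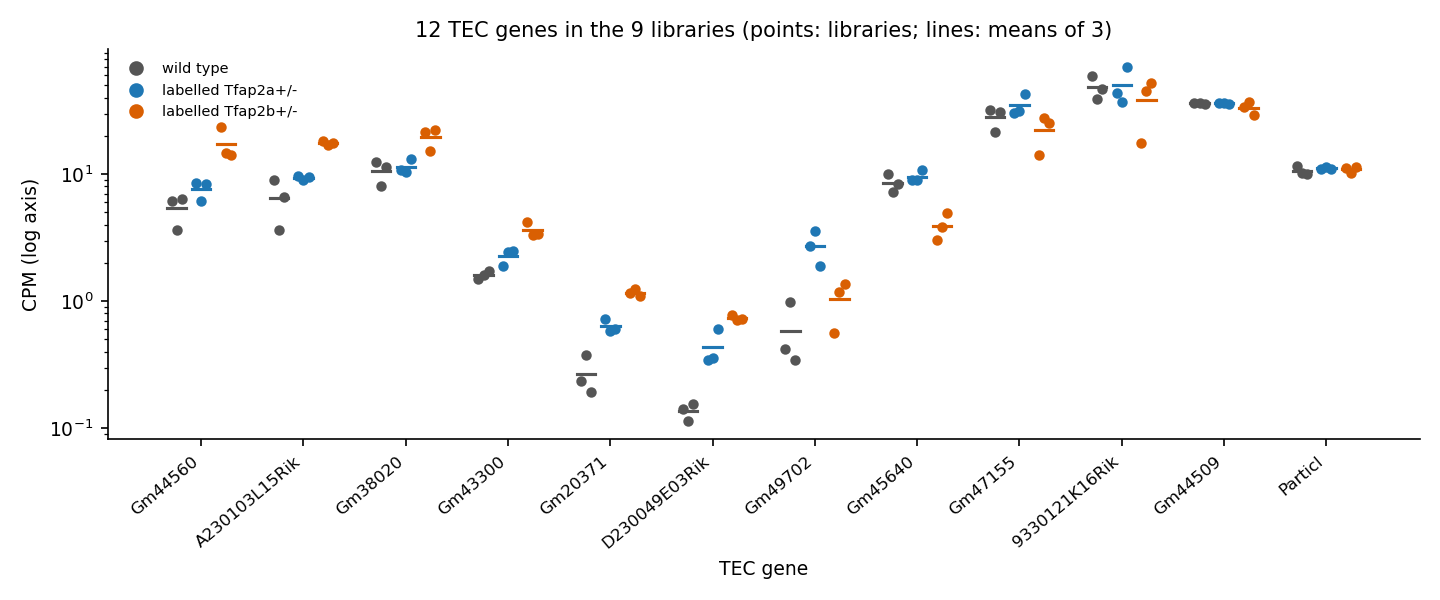
CPM on a log axis (vertical) of 12 TEC genes (horizontal) in the 9 libraries, with points for libraries and lines for the means of 3. The libraries labelled Tfap2b+/- are above wild type in the 6 genes on the left, below it in Gm45640 and overlap with it in the 4 genes on the right. In Gm47155 they are below those labelled Tfap2a+/-.

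The 54 members with at least 900 counts included 17 wholly above wild type in Tfap2b+/- (31.5%, against 8.73% of all genes) and 1 wholly below (1.85%, against 7.6%). DESeq2 called 6 of them higher and 1 lower, where it called 0.79% and 0.315% of all genes. Those with at least 900 counts had a median log2 fold of 0.19 in Tfap2b+/- against wild type and those with fewer 0.64. 9330121K16Rik (chr8:55073249-55077134), which has no gene within the distances used, was at 59.6, 39.3 and 46.4 in wild type, 43.8, 37.3 and 69.8 in Tfap2a+/- and 17.7, 44.9 and 51.8 CPM in Tfap2b+/-, with a log2 fold of -0.34 ± 0.38 (SE) for Tfap2b+/- against wild type. Gm44509 (chr7:55973519-55974842), antisense within an intron of A230056P14Rik, was the steadiest of these: it was at 36.3, 36.5 and 35.6 in wild type, 36.6, 36.4 and 35.9 in Tfap2a+/- and 34.0, 37.0 and 29.4 CPM in Tfap2b+/-. Gm42732 (chr5:73311364-73312560), in an intron of Ociad1, was at 27.3, 22.2 and 28.1 in wild type, 26.0, 25.5 and 30.1 in Tfap2a+/- and 24.9, 36.2 and 31.1 CPM in Tfap2b+/-. In these 3, which are among the 5 of highest mean CPM, the groups overlapped.

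The 4 downstream members of highest level are given beside the genes before them. Gm47155 (chr13:93410783-93412957) begins 5654 bp after Homer1, a postsynaptic scaffold gene, and was at 32.1, 21.3 and 30.7 in wild type, 30.2, 31.7 and 42.8 in Tfap2a+/- and 14.0, 27.6 and 25.2 CPM in Tfap2b+/-. The Tfap2b+/- libraries were thus below those of Tfap2a+/- and overlapped with wild type. The log2 fold of Gm47155 for Tfap2b+/- against wild type was -0.33 and that of Homer1 -0.84. The lowest value of both Gm47155 and Homer1 (94.6 CPM) was in library 1 labelled Tfap2b+/-, the library with the raphe markers. Gm49593, 1040 bp after the potassium channel gene Kcnj4, was at 4.31, 10.4 and 25.1 CPM in Tfap2b+/-, where Kcnj4 was at 30.1, 66.3 and 147 CPM. Both thus had the same order over those libraries. Gm43682, 523 bp after the septin gene Sept11, had a log2 fold of -0.14 with -0.12 for Sept11, and Gm37711, 1363 bp after the opioid receptor gene Oprd1, had -0.50 with -0.46. Downstream members began 186 to 9258 bp after the neighbour, with a median of 2401 bp.

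The strand of the reads was checked for every member. In this kind of library a read of the gene's own RNA is counted on the reverse strand, and counts on the forward strand come from the other strand of the genome or from incomplete strand marking. Among 3607 protein-coding genes with no gene on the other strand within 10 kb, the forward share of the stranded counts had a median of 0.410%. For the members the median was 0.617%, for all genes tested 0.622%, and for the 330 members with no gene on the other strand 0.299%. The median member was thus read from its annotated strand at a share like that of the median gene. High forward shares were more frequent among members: 17.9% were over 10%, against 11.2% of all genes tested. Over 50% were 8.16% of members and 4.15% of all genes tested.

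The 67 members over an exon of a gene on the other strand differed, with a median forward share of 44.7%, and 29 of them were over 50%. Pooled over all members, the forward share was between 33.2 and 40.9% per library, and over the 330 with no opposite gene between 1.91 and 2.73%. Over all genes it was between 4.16 and 4.94%. Among members with at least 900 counts, the highest shares were those of Gm44560 (67.5%, over Ube3a), Gm37206 (56.6%, over Rbm4b), Gm49338 (56.5%, over the beta-secretase gene Bace1) and Particl (52.0%, over Mat2a, which encodes the enzyme that makes S-adenosylmethionine). Particl, a noncoding RNA from the promoter region of Mat2a, was at 11.5, 10.2 and 9.95 in wild type, 11.0, 11.4 and 10.9 in Tfap2a+/- and 11.2, 10.2 and 11.3 CPM in Tfap2b+/-, all overlapping. Gm37206 was at 2.96, 2.41 and 2.89 in wild type, 4.35, 2.98 and 3.96 in Tfap2a+/- and 6.65, 5.56 and 6.30 CPM in Tfap2b+/-, with no overlap between the 3 groups. It was also named for a small p, and how many of all genes had 3 such groups is not given here. The lowest shares at that depth were 0 forward counts for 2900064F13Rik (after Adgrl3) and Gm38077 (over Mrpl3).

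**Figure D5:**
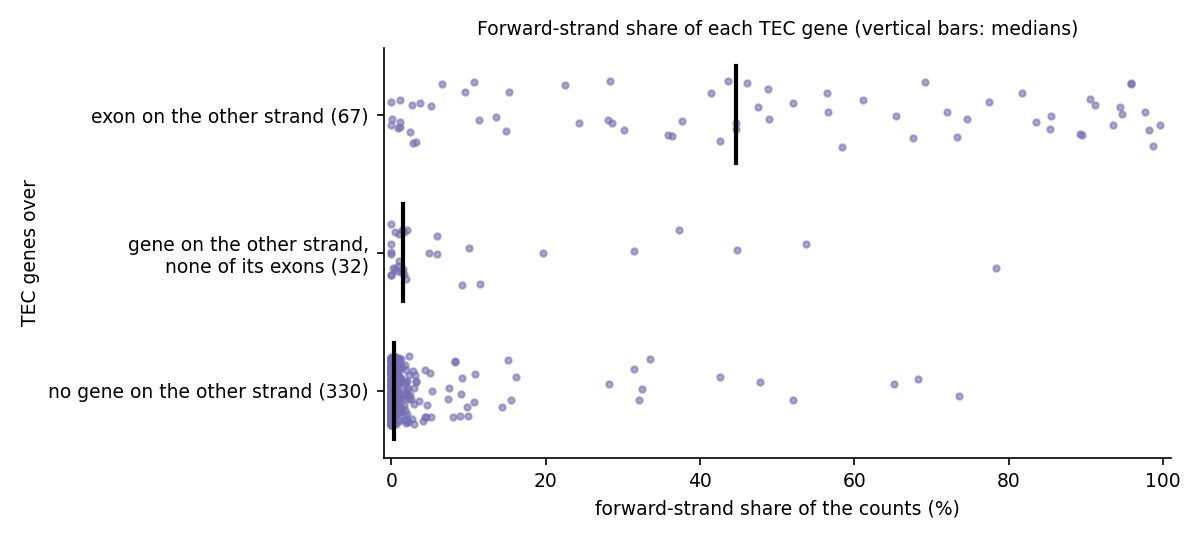
Forward-strand share of the stranded counts (horizontal axis, %) of each TEC gene, by what lies on the other strand, with a bar at the median and heights spread for display. The 330 genes with no opposite gene crowd near 0, while the 67 over an opposite exon spread over the whole range with a median of 44.7%.

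At 6 members the forward share was over 95%: Gm37376 over Malat1 (99.6%), Gm44101 over Itpr1 (98.7%), Gm43857 over Usp33 (98.2%), Gm10676 over Mypop (97.6%), Gm45133 over Ccdc106 (95.8%) and Gm37811 over C1ql3 (95.8%). They make up 1.40% of the members, where 0.636% of all genes tested were over 95%. These members were picked after their values were seen, apart from Gm10676. If 0.410% of an opposite gene's reads were counted on the wrong strand, that would make up over 10% of the count of 4 members (Gm10676, Gm37376, Gm43857 and Gm44101) and the whole count of 0. With the upper quartile of 0.774% it would be over 10% for 9 members and the whole count for 1, Gm37376. Members with a forward share of 50% or less had a median log2 fold of 0.63 in Tfap2b+/- against wild type, and the 35 members over 50% had 0.17.

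Set beside the members was a list of nuclear RNAs, imprinted RNAs and hosts of small nucleolar RNAs, of which 15 were tested. Of these, 6 had all Tfap2b+/- libraries above wild type, 0 had them below and 9 overlapped, where 8.73% of all genes lay above and 7.6% below. Malat1, a nuclear speckle RNA, was at 832, 676 and 762 in wild type, 1059, 737 and 1078 in Tfap2a+/- and 1494, 1387 and 1196 CPM in Tfap2b+/-. Its log2 fold for Tfap2b+/- was 0.84 ± 0.16 (SE; adjusted p = 0.261 with edgeR's quasi-likelihood test, 7.4e-04 with DESeq2). Kcnq1ot1, an imprinted antisense RNA that stays unspliced, had 1.08, Airn 0.79, Meg3 0.77, Snhg11 0.62 and Snhg14 0.51. The overlapping ones included Neat1 (0.46), Rian (0.20), Peg13 (0.08) and Gas5 (-0.03). Gas5 hosts small nucleolar RNAs. GENCODE M21 classes Snhg11 as protein coding. Meg3, Rian and Mirg lie close together on chromosome 12, so the listed RNAs are not all independent.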

How the data were processed

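Poly(A)-enriched, strand-marked libraries from the 9 brain samples were sequenced as paired 75 bp reads. The deposited files hold raw counts per gene, made by the authors with cutadapt 2.4 and STAR 2.6.1d on GRCm38.p6, per the submitters' processing notes, in 3 columns: unstranded, forward and reverse. The reverse column was used, since dUTP marking puts sense reads there. Rows without a gene were not part of library sizes; fragments on no exon made up 7.30 to 11.8% of fragments.

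All 16825 genes with at least 90 counts over the 9 libraries were fitted together in edgeR 4.0.16 (R 4.3.3) with TMM factors and genotype as the only term. The quasi-likelihood test was adjusted by Benjamini-Hochberg over all of them, at 0.05. Standard errors were taken from the fold and F. The script was tested on simulated data. Positions and transcripts came from GENCODE M21 (3219 TEC genes, 3161 in the files); 37 identifiers did not match. Shares of fragments were compared by exact permutation. Alternatives were DESeq2 1.42.0, other scalings and filters, unstranded counts, a replicate block, the fragment share as covariate, 2 genotypes only and each library left out. After seeing the data, 1 member per host, a forward share up to 50% and a fit without 3 libraries high in choroid plexus or raphe markers (wild type 2 and library 1 of each heterozygote) were added. DESeq2 values that were not available stayed so.

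Named were the 12 members of highest CPM, the 8 of smallest p against wild type in each comparison and 4 between heterozygotes, the 4 highest and 2 lowest forward shares at 900 counts, the 3 nearest the threshold on each side, and the 6 sense-host and 4 downstream members of highest CPM. Gm9870, Gm43034, Gm49300, Gm44559, Gm44562 and the members grouped by a shared host were picked after their values were seen. The members and lists were chosen with earlier results of these data known.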

Additional observations from a re-analysis of the deposited data

How the results depend on the processing

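The number of members called by edgeR was 0 in all 3 comparisons. DESeq2 called 25 for Tfap2b+/- against wild type, 1 for Tfap2a+/- against wild type and 10 between the heterozygotes. Of all genes, it called 0.79% higher and 0.315% lower in the first comparison. The shares were 0.131% and 0.0535% in the second and 0.82% and 0.582% in the third. Leaving out each library gave 0 to 1 calls between the heterozygotes, with 1 without Tfap2b+/- replicate 3. The median log2 fold of Tfap2b+/- against wild type, 0.596, became -0.086 with the share of fragments on no exon as a covariate and 0.323 with at least 300 counts. It was 0.183 for members with no sense host and 0.458 without the 3 libraries high in choroid plexus or raphe markers. Between the heterozygotes, 0.375 became -0.134 with that covariate and 0.183 for members with no sense host. The cause of these shifts was not tested. Leaving out each library gave medians from 0.513 to 0.712 for Tfap2b+/- against wild type, from 0.103 to 0.343 for Tfap2a+/- and from 0.351 to 0.426 between the heterozygotes. Summed CPM in Tfap2b+/- was 996 without the member of highest count, against 1090.

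The same replicate numbers did not pair the libraries: correlations of same-numbered libraries ran from -0.37 to 0.33. With the replicate block the medians were 0.605, 0.168 and 0.379, with 0 members called. With 1 member per host they were 0.547, 0.157 and 0.345, and with a forward share of 50% or less 0.628, 0.184 and 0.409. Of 1440 values of the 36 named members under the alternatives, 1358 stayed within 1 SE and 54 had the other sign. A member at the threshold has about 10 counts per library, which limits its precision.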
